A study of Rattus norvegicus with 4 samples.

Results

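The genes described here were raised only for a time in a rat oral epithelial cell line after it was moved to 37 °C: they were at least 2-fold above day 0 on day 3 or day 6 and within 1.5-fold of day 0 again on day 9. There were 89 of them among the 8802 genes whose highest log2 value was 6 or more, which is 1.01%, and among 14218 genes with a probe set in all. Each gene was represented by its brightest probe set on average, and genes whose symbols begin with Slc, Rab, Krt, Psm, Mrp, S100, Hsp or Dnaj, together with a short list of stress and growth factor genes, were left out. Since the members were selected on the values of all 4 arrays, their courses are a description and carry no test.

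ROE2 is an immortalized line with an unlimited life span, taken from the tongue of a fetal Wistar rat that carries a transgene for a temperature-sensitive SV40 large T antigen. Large T is a viral protein that keeps cells dividing. Its temperature-sensitive form does so at a low temperature and loses this function when the cells are warmed, which was not measured here. Cells on collagen-coated dishes in a medium with 2% serum and 10 ng/ml EGF were kept at 33 °C for 24 h, then held at 37 °C for 0, 3, 6 or 9 days, and the labels call day 0 the control. RNA of each day was hybridised to 1 Affymetrix Rat Genome 230 2.0 array, so there were no replicates, no p-value was computed, and an effect of the day cannot be told apart from one of its array. Day 0 was the only group with no time at 37 °C. In each difference from day 0 the warming therefore cannot be told apart from the days in culture. All 4 groups share the line, the transgene, the serum and the EGF, and the precision is limited by the number of arrays.

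Stratified oral epithelium renews itself from dividing basal cells that leave the cycle, move upwards and build keratins, junctions and a cross-linked envelope. Most of the genes known for that program stay on once a cell has entered it. Genes that are on for a limited time in a culture are often of other kinds: secreted signals, responses to a shortage of amino acids or to crowding in the endoplasmic reticulum, and regulators of the cell cycle.

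The labelled cell type was checked against its markers. Of 15 markers of stratified squamous epithelium on the array, 14 read 6 or more on an array, against 0 of 10 for fibroblasts, 0 of 10 for lymphocytes, 1 of 9 for endothelium, 1 of 9 for salivary gland, 2 of 12 for macrophages, 2 of 12 for mast cells, 3 of 13 for muscle and 4 of 12 for neurons and glia. The brightest of these other markers, besides Map2, were Cd14, at 10.66, 9.68, 9.18 and 8.80 on days 0, 3, 6 and 9, and the myosin Myh1, at 9.94, 10.28, 9.27 and 8.84. The median log2 difference from day 0 over all genes was -0.05, -0.18 and -0.14 on days 3, 6 and 9, and that of the hybridisation spike-ins, transcripts added to every array in a fixed amount, was 0.14, 0.39 and 0.63. When the arrays were centred on the spike-ins, which takes those amounts off every gene, 76 genes met the rule and 28 of the 89 were among them. The brightest control probe set for bacterial transcripts read 4.19, 4.36, 4.51 and 4.56 on days 0, 3, 6 and 9, and a fold against a day 0 value at or below it is given as a bound.

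A return to the day 0 level was the less common course. Of 607 genes that were 2-fold or more above day 0 on day 3 or day 6, 98 were back within 1.5-fold on day 9, which is 16.1%, and 382 were still 2-fold or more higher (62.9%). A further 113 lay between those bounds on day 9 and 14 were more than 1.5-fold below day 0. Of the 98, 9 were left out by their symbols, which gives the 89. The genes that stayed up were led by Vsig8, an immunoglobulin-family membrane protein, at 6.08, 9.79, 11.73 and 11.98 on days 0, 3, 6 and 9, and by Lgals7, a galectin of stratified epithelia, at 6.34, 10.39, 11.53 and 11.36. Of those 14, the ones with the largest day 3 difference were Snap25, Rcan2 and Fads1, which lay at -0.68, -1.31 and -1.88 against day 0 on day 9.

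The day on which a gene was up went with whether it came back. Of 102 genes that were 2-fold up on day 3 alone, 67 were back on day 9 (65.7%), of 277 up on both days 20 (7.22%), and of 228 up on day 6 alone 11 (4.82%). These counts share their arrays with the rule and are given as a description. Genes up on day 3 alone were by definition already under 2-fold on day 6, while the others were still 2-fold up then. Part of the contrast is therefore set by the grouping. Among the members, 63 were up on day 3 alone, 15 on days 3 and 6, and 11 on day 6 alone. The day 6 array stood apart in 1 sign of RNA quality: the beta-actin probe sets for the 3' and the 5' end differed by 2.25, 2.44, 1.22 and 2.35 on days 0, 3, 6 and 9, while those of GAPDH differed by 0.10, 0.04, -0.02 and 0.18. The part of this in the course groups was not tested. Against day 0, 78 members were 2-fold or more higher on day 3, where 4.31% of all genes were, and 26 on day 6, where 5.74% were; the figure for either day is 6.9% of all genes and, by the rule, all 89 members.

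The decline was spread over both later steps. Of the 89, 77 read higher on day 3 than on day 6, 86 read lower on day 9 than on day 6, and 74 read lower at each step. The median difference of the members from day 0 was 1.21, 0.80 and 0.22 on days 3, 6 and 9 on the log2 scale. For the 78 members up on day 3, a median of 54.8% of the log2 difference was left on day 6, under 25% in 16 of them and 75% or more in 15. From day 3 to day 6, 15 members were 2-fold or more lower, a step that 1.6% of all genes made. From day 6 to day 9, 13 members were, against 0.591% of all genes, and from day 3 to day 9, 48 members, against 3.66% of all genes; the rule used these values, so nothing is read from the counts.

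Most members changed little beyond the bound that chose them. The peak difference had a median of 1.23 on the log2 scale, was 1.00 at the lowest, under 1.1 in 28 members and under 1.5 in 70, and reached 2 in 6. The highest were those of Nptx1 and Mcpt8, at least 3.47 and 2.81 when their day 0 values, below the bacterial controls, are set to the control. On day 9, 63 members read above day 0 and 26 below, 17 within 0.1 of it. Nearest inside the 2-fold bound stood Cenpk, Gpc1, Dtnb, Klf11 and Ghitm, with peak differences of 1.00 to 1.02, and nearest outside it Adm, Ormdl3, Abhd1, Gda and Vcpkmt, at 0.997 down to 0.986. At the day 9 bound Egr2 was inside with a difference of 0.57, as were Maf, LOC102548586, Smpdl3a and Nptx1, the last at -0.53. Outside it were Atf5 and Spef1 at 0.61 and Lrp1 at 0.62 above day 0, and Txndc12 and Mthfd2 at -0.60 and -0.62. By level, Alox12 just passed with a highest value of 6.04, followed by Vnn1, Kcnj3, Egr2 and Vipr1 at up to 6.27, while Cyp2b21 at 5.82 and then Purg, Fgf22, Zfp597 and Wif1 at 5.48 were left out. With neighbours this close on both sides, membership of a single gene near a bound rests on differences of a few hundredths.

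**Figure D1:**
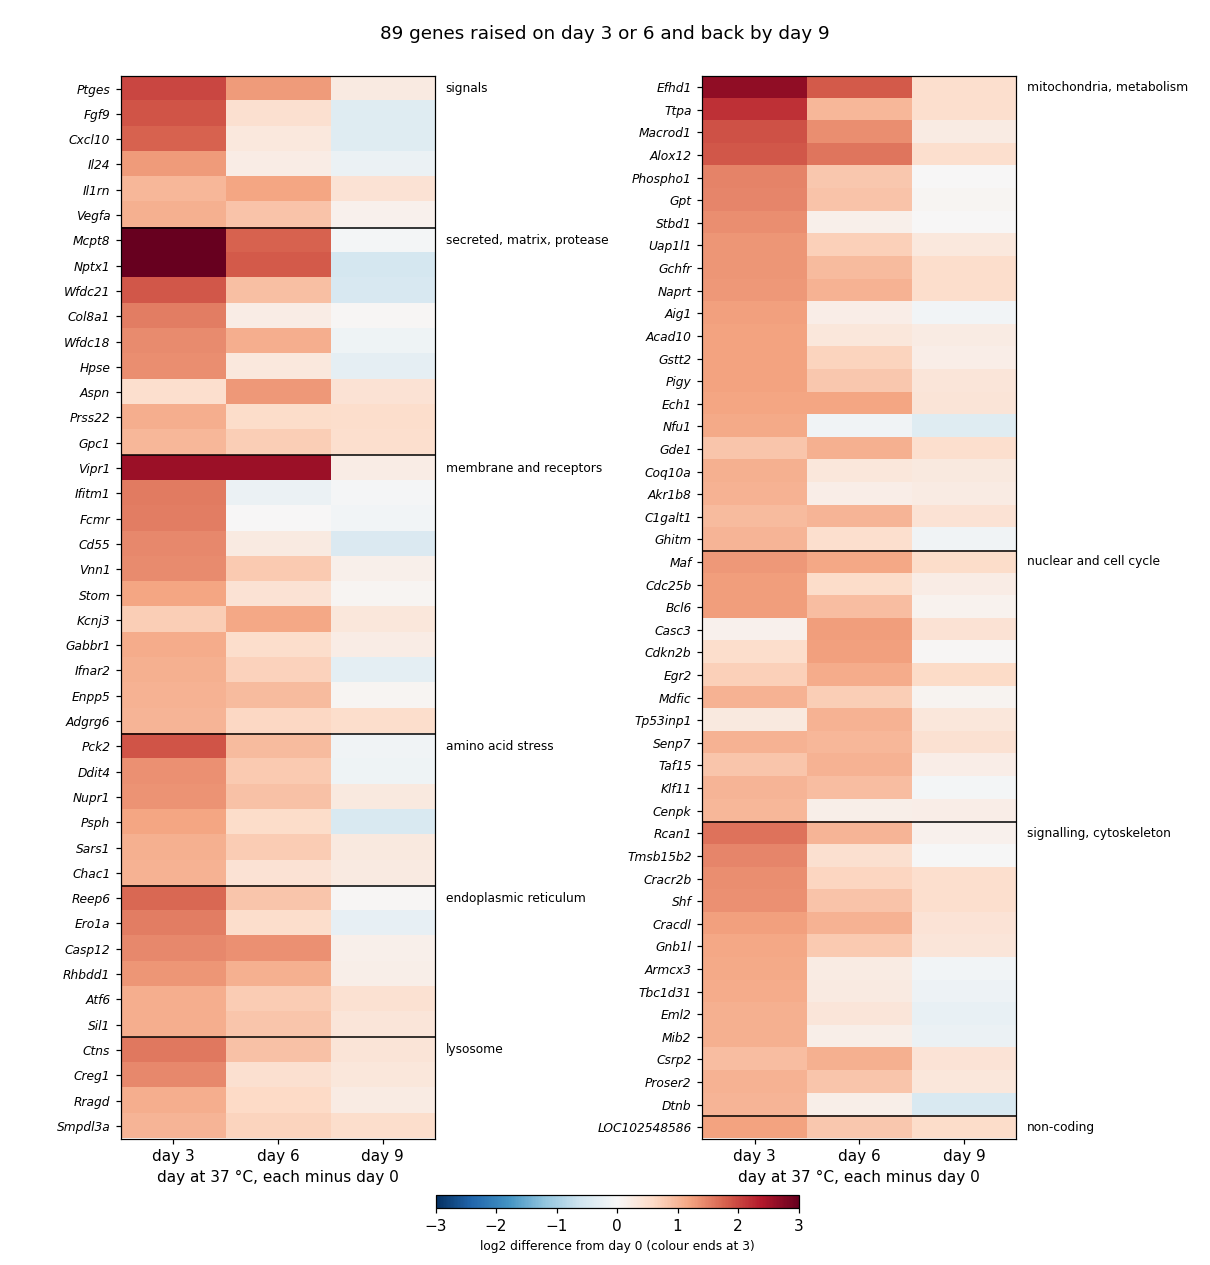
Log2 difference from day 0 on days 3, 6 and 9 (columns) for the 89 members (rows), grouped by what the gene product is known to do; red is higher than day 0, blue lower, and the colour ends at 3. The day 3 column is the reddest in most rows, day 6 is the deeper column in 12, and day 9 is pale throughout, as the rule requires.

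The members were sorted by hand into 10 groups by the role of their product, after their values were known. The median differences on day 3 lay between 1.01 for nuclear and cell cycle genes and 1.53 for signals. Nuclear and cell cycle genes were also the group with the most members up on day 6 alone, 5 of 12.

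Among the 6 members grouped as signals, the leading gene was Ptges, placed there as an enzyme that makes prostaglandin E2, a local mediator. Ptges read 7.91, 9.92, 9.20 and 8.18 on days 0, 3, 6 and 9, which was 4.04-fold above day 0 on day 3 and 2.44-fold on day 6. A second Ptges probe set went the same way, at 6.89, 8.61, 8.38 and 6.94. Ptgs2, the cyclooxygenase that feeds Ptges with its substrate, ran against it, at 12.06, 10.94, 10.15 and 10.34; Ptgs2 is no member and was singled out after its values were seen.

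Fgf9, a growth factor known as a signal between epithelium and mesenchyme, read 6.07, 7.94, 6.54 and 5.71 on days 0, 3, 6 and 9. Its difference of 1.88 on day 3 was down to 0.47 on day 6, and its second probe set read 5.45, 7.02, 5.91 and 5.11. Vegfa, which drives the growth of blood vessels, read 10.06, 11.13, 10.91 and 10.18, and was slower to decline, with 79.6% of its day 3 difference left on day 6. Fgf9 and Vegfa were the members in a list of 34 measured growth factor and receptor genes, of which 5, 7 and 7 were 2-fold or more higher on days 3, 6 and 9, and 3, 6 and 5 lower.

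Il24, a cytokine of the interleukin-10 family that epithelial cells secrete, was highest on day 3, at 11.20, 12.49, 11.41 and 11.04 on days 0, 3, 6 and 9. Il1rn, the natural antagonist of the interleukin-1 receptor, peaked on day 6 instead, at 6.67, 7.65, 7.85 and 7.11. In their list of inflammatory genes, of 23 measured, 1, 3 and 1 were 2-fold or more higher on days 3, 6 and 9, and 9, 10 and 9 were lower. Among all genes, the share at least 2-fold lower was 2.15%, 8.08% and 6.25% on days 3, 6 and 9, and the share at least 2-fold higher on day 9 was 5.57%. The largest of the lower genes on day 3 were the chemokines Ccl2, Cxcl1 and Ccl7 and the colony stimulating factor Csf2, with differences of -5.76, -3.06, -2.87 and -3.28.

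Cxcl10, a chemokine that interferons switch on and that draws T cells, read 4.98, 6.75, 5.29 and 4.62 on days 0, 3, 6 and 9. It was 3.40-fold above day 0 on day 3 and 1.24-fold on day 6. Its neighbours on chromosome 14, Cxcl9 and Cxcl11, which answer to the same signals, stayed at or below the bacterial controls on all 4 arrays, between 2.68 and 3.20. In the list of interferon response genes, 16 measured, 2 read at least 2-fold higher and 3 at least 2-fold lower on day 3 than on day 0. Mx2, an antiviral GTPase, was the other higher one and was still 2.25 above day 0 on day 9, while Gbp4, Gbp2 and Irf1 were lower by 2.75, 2.71 and 1.25 on day 3. Ifit2, which stayed under 6, had a course like that of Cxcl10, at 3.49, 4.81, 4.20 and 3.45, above the controls on day 3 alone. Usp18 and Isg20 read above day 0 on all 3 later days, by 0.95, 0.60 and 0.50 and by 0.58, 0.77 and 1.04.

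The promoter of Cxcl10 is shown because it holds several of the short motifs that were searched for. It is the RefSeq window of 250 bases before to 50 after the annotated start, chr14:15988816-15989115 on the plus strand of build GRCr8. Capitals mark, in order, GGAAATTCC, a match to the NF-kB core GGANTTTCC read on the other strand, TATAAA, and TGAGTCA, a match to the AP-1 motif TGANTCA.
Cxcl10: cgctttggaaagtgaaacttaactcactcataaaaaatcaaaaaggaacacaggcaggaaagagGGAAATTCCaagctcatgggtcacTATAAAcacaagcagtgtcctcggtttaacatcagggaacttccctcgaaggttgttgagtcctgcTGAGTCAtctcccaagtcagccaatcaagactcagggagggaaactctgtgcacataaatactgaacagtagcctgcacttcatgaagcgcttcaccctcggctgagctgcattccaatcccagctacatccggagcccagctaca
Of 67 members with a promoter in the table, Cxcl10 was the only one with GGANTTTCC on either strand, which is 1.49%, against 1.26% of all 27457 promoters and 1.33% of those of genes measured at 6 or more. TGANTCA was in 5 members, 7.46%, against 7.33% of all promoters, 4.98% of those of genes measured at 6 or more and 11.3% of those of genes that stayed up. These matches are letters in a window and say nothing about binding.

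Of the secreted proteases, inhibitors and matrix genes there were 9, and they held the largest differences of all. Mcpt8, a serine protease of basophil granules in mouse, read 3.35, 7.01, 5.13 and 3.29 on days 0, 3, 6 and 9. Days 0 and 9 lay below the bacterial controls, so the gene was at least 7.03-fold higher on day 3 and at least 1.91-fold on day 6 than on day 0. Mcpt8 has 1 probe set, and 10 of the other 11 mast cell markers measured stayed under 6 on every array. Cpa3, Fcer1a, Cma1, Kit, Ms4a2, Hdc, Mcpt4 and Mcpt9 were at or below the bacterial controls throughout. Tpsb2, Mcpt1 and Tpsab1 were above the controls on every array, Tpsb2 at 5.96, 5.88, 6.39 and 6.16. The summed linear signal of the 11 markers without Mcpt8 was 194, 192, 216 and 205 on days 0, 3, 6 and 9. In RNA of a whole culture, fewer cells of a type and less RNA per cell cannot be told apart.

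Nptx1, neuronal pentraxin, a secreted protein that gathers receptors at synapses, had a like course at 4.04, 7.66, 5.87 and 3.50 on days 0, 3, 6 and 9. Against day 0, which lay below the controls, it was at least 11.1-fold higher on day 3 and at least 3.21-fold on day 6. Other genes known from neurons moved too: of 12 neural markers measured, 4 read 6 or more on an array, and without Nptx1 the summed linear signal was 706, 2050, 2267 and 1811 on days 0, 3, 6 and 9. Map2, a microtubule protein, made most of it, at 8.51, 10.46, 10.77 and 10.33. Snap25, a protein of vesicle fusion, peaked on day 3 as Nptx1 did, at 5.98, 8.39, 6.47 and 5.30. Tubb3 rose up to day 9, at 7.29, 7.50, 8.23 and 8.50. Syt1, Rbfox3, Nefl, Nefm, S100b and Stmn2 were at or below the controls on every array. Gfap and Sox10 were above the controls but under 6. The part of these genes in the course of Nptx1 was not tested.

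**Figure D2:**
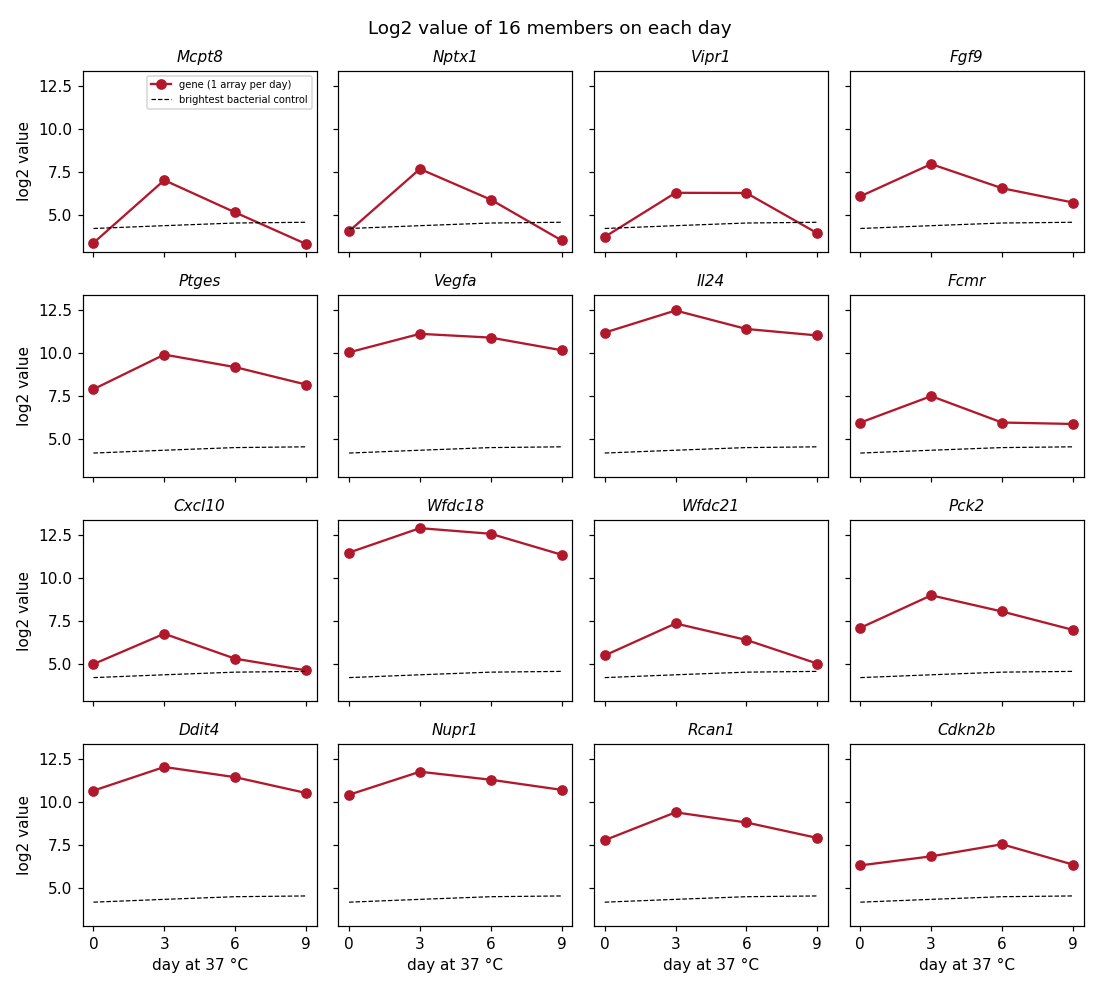
Log2 value (vertical axis) on days 0, 3, 6 and 9 at 37 °C (horizontal axis) for 16 members, 1 point per array; the dashed line is the brightest bacterial control of each array. Mcpt8, Nptx1 and Vipr1 start and end below the dashed line, and Vipr1 holds its day 3 level on day 6 where Fcmr is already back at 5.97.

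Wfdc18 and Wfdc21, small secreted proteins with a WAP domain, a fold found in protease inhibitors and antimicrobial proteins, lie next to each other on chromosome 10 with 0 protein-coding genes between them. Wfdc18 read 11.47, 12.89, 12.56 and 11.35 on days 0, 3, 6 and 9. Wfdc21 read 5.48, 7.34, 6.39 and 5.01, so both were up on day 3 and below day 0 on day 9. The next gene on the far side, Heatr6, had a different course, with differences of -0.21, 0.57 and 0.69 on days 3, 6 and 9. Of 5 measured genes in the list of antimicrobial proteins, 4 were 2-fold or more higher on day 3. The other 2 of these stayed up: Slpi, an inhibitor of neutrophil elastase, was 3.34 above day 0 on day 3 and 3.71 on day 9, and the defensin Defb4 was 1.60 and 2.29 above.

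The promoter of Wfdc18 is shown for its TATAAA, in capitals, whose first base lies 33 bases before the annotated start; the window is chr10:69086069-69086368, plus strand, GRCr8.
Wfdc18: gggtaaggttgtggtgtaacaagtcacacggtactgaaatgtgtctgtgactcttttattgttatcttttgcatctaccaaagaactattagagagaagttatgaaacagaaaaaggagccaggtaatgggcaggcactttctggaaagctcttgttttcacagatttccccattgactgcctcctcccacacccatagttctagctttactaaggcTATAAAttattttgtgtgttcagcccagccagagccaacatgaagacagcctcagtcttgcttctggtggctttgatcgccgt
TATAAA on either strand was in 6 of the 67 member promoters, 8.96%: those of Cxcl10, Rcan1, Tmsb15b2, Casp12, Wfdc18 and Il1rn. The share was 14.3% of all 27457 promoters and 6.16% of the 7424 whose gene was measured at 6 or more.

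The other members of this group were enzymes and matrix proteins. Col8a1, a chain of the short-chain collagen VIII, read 4.88, 6.42, 5.11 and 4.91 on days 0, 3, 6 and 9, and was close to its first level on day 6. Hpse, heparanase, which cuts heparan sulfate chains of the matrix and cell surface, read 8.53, 9.91, 8.85 and 8.27. Aspn, asporin, a small proteoglycan of the matrix, was the day 6 gene of the group at 6.95, 7.44, 8.25 and 7.40. Gpc1, a cell surface heparan sulfate proteoglycan, at 8.42, 9.42, 9.16 and 8.91, and Prss22, a secreted serine protease, were near the bounds of the rule. Of the 9, 5 were below day 0 on day 9, and the median on that day was -0.06.

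Receptors and other membrane proteins made up 11 members. Vipr1, the receptor for vasoactive intestinal peptide, was the largest, at 3.70, 6.27, 6.26 and 3.92 on days 0, 3, 6 and 9. Since day 0 lay below the controls, it was at least 4.22-fold higher on day 3 and at least 4.19-fold on day 6. No other member with a peak of 2 or more on the log2 scale kept so much of it: 99.5% of the difference was left on day 6, and then the gene was back below the controls on day 9. A second Vipr1 probe set read between 3.70 and 4.08 on all 4 arrays, below the controls, and did not follow.

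Fcmr, a receptor for immunoglobulin M known from lymphocytes, and Ifitm1, an interferon-induced membrane protein that hinders virus entry, were back at the day 0 level by day 6. Fcmr read 5.97, 7.51, 5.97 and 5.89 on days 0, 3, 6 and 9. Ifitm1 read 6.04, 7.60, 5.85 and 6.01. Their day 6 differences were 0.00 and -0.18, and besides Ifitm1 the 1 member below day 0 on day 6 was Nfu1. Of 10 lymphocyte markers, 0 read 6 or more on an array, and their summed linear signal was 124, 117, 142 and 140 on the 4 days.

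Cd55, which shields cells from complement, read 7.77, 9.22, 8.04 and 7.33 on days 0, 3, 6 and 9. Its second probe set ran at 5.68, 7.40, 6.80 and 5.73, 2-fold up on both days 3 and 6. Vnn1, a pantetheinase anchored at the cell surface, read 4.65, 6.06, 5.43 and 4.81. Stom, stomatin, a membrane scaffold, Gabbr1, a subunit of the GABA-B receptor, Ifnar2, a chain of the type I interferon receptor, Enpp5 and Adgrg6, an adhesion receptor, were 1.03 to 1.18 above day 0 on day 3. Kcnj3, a potassium channel subunit, was the member of this group that was up on day 6 alone, with a difference of 1.15. Gabbr1 and Ifnar2 had peak differences of 0.23 and 0.40 when averaged over their probe sets.

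Cd55, Fcmr and Il24 lie along the same stretch of chromosome 13 in the RefSeq gene order. Between Fcmr and Il24 there are 0 protein-coding genes, and between Cd55 and Fcmr there are 9. All 3 were up on day 3 alone, by 1.45, 1.54 and 1.29 on the log2 scale, with day 6 differences of 0.27, 0.00 and 0.21. The genes between them were measured in part. Pfkfb2, a regulator of glycolysis, and C13h1orf116 had other courses, with differences of 0.68 and 0.69 on day 3 and 1.16 and 1.13 on day 9. C4bpa, C4bpb, Pigr and, beyond Il24, Il10 were under 6 on every array. Other close pairs were Aig1 and Adgrg6 with 2 genes between them, Stbd1 and Cxcl10 with 5, Taf15 and Wfdc18 with 8, and Gchfr and Chac1 with 9. How many close pairs the same number of other measured genes would give was not counted. The course on day 3 alone was that of 63 of the 89 members, so nothing is read from these positions. The members lay on 21 chromosomes in all, from 10 on chromosome 1 to 1 on chromosomes 18 and 19.

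Genes of the amino acid response gave 6 members, all up on day 3 alone, after the rule had left out others of the response by symbol. In that response a shortage of amino acids or stress in the endoplasmic reticulum leads to more of the transcription factor ATF4, which switches on genes for making and loading amino acids. Pck2, the mitochondrial enzyme that makes phosphoenolpyruvate, read 7.09, 8.98, 8.04 and 6.97 on days 0, 3, 6 and 9. Its second probe set read 6.06, 7.25, 6.47 and 5.93. Ddit4, an inhibitor of the growth kinase mTORC1, read 10.69, 12.06, 11.47 and 10.55.

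Nupr1, a small stress-induced nuclear protein, read 10.45, 11.79, 11.32 and 10.73 on days 0, 3, 6 and 9. Psph, which carries out the last step of serine synthesis, read 9.59, 10.77, 10.14 and 9.13. Sars1, which loads serine on its transfer RNA, read 11.05, 12.12, 11.81 and 11.34. Chac1, an enzyme that breaks down glutathione, read 11.25, 12.30, 11.69 and 11.53. Psph ended 0.46 below day 0, and Sars1, Nupr1 and Chac1 0.28 to 0.29 above it.

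Nupr1 is shown with its promoter because it alone among the members holds the composite motif of ATF4 and C/EBP that was searched for. Capitals mark CACGTG, an E-box, and ATTGCATCA, which is TGATGCAAT on the other strand and begins 56 bases before the annotated start; the window is chr1:190645852-190646151, minus strand, GRCr8.
Nupr1: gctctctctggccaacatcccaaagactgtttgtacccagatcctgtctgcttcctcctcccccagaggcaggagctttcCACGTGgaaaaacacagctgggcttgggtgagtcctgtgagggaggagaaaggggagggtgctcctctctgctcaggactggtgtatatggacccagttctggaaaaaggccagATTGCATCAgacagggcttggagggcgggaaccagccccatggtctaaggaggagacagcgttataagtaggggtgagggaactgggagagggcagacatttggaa
TGATGCAAT on either strand was in 1 of 67 member promoters, 1.49%, in 0.193% of all promoters and in 10 of the 7424 promoters of genes measured at 6 or more, 0.135%. CACGTG was in 7 members, 10.4%, and in 10.3% of those 7424. Pck2, Ddit4, Psph, Sars1 and Chac1 have windows without the composite motif, from which nothing follows about ATF4, since these letters were looked for only near the start.

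The list of ATF4 response genes was wider than the members. Of 38 measured, 18 were 2-fold or more higher on day 3, 8 on day 6 and 2 on day 9, and 0, 0 and 2 were lower, with list medians of 0.84, 0.53 and -0.09 beside -0.05, -0.18 and -0.14 for all genes. Of the 18, 11 were back on day 9. Besides the 6 members these were Gdf15, Vldlr, Trib3, Asns and Ddit3, which the rule leaves out by name. On day 6 Trib3, Asns, Vldlr and Gdf15 still read 1.24, 1.24, 1.07 and 1.00 above day 0, and Ddit3 0.68. The course on day 3 alone is thus that of the members and not of the whole response. The 4 largest outside the members on day 3 were Gdf15 at 3.25, Vldlr at 2.74 or more, since its day 0 value lay below the controls, Gpt2 at 2.68 and Trib3 at 2.13. Phgdh, the first enzyme of serine synthesis, ended 1.42 below day 0, and Atf3 and Cebpb were the 2 still up on day 9, by 1.68 and 1.62. The list was written with these results known in outline, so its medians are no independent evidence.

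In the endoplasmic reticulum there were 6 members. Reep6, which shapes its membranes, read 4.72, 6.45, 5.56 and 4.76 on days 0, 3, 6 and 9. A second Reep6 probe set read 2.90 to 3.21, below the controls, and did not follow. Ero1a, the oxidase that supplies disulfide bonds, read 8.39, 9.93, 8.92 and 8.13, while its second probe set, at 5.85, 7.04, 6.80 and 6.73, was still 0.88 up on day 9.

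Casp12, a caspase tied to this compartment in rodents, held its level on day 6, at 7.34, 8.78, 8.72 and 7.50 on days 0, 3, 6 and 9. Rhbdd1, a membrane protease, was also up on both days. A second Rhbdd1 probe set, under 6 on every array and below the controls on day 0, read 3.62, 4.97, 5.06 and 4.85. As read, it was still 1.23 up on day 9. Atf6, a sensor of unfolded protein, read 9.36, 10.45, 10.11 and 9.82, and Sil1, a partner of the chaperone BiP, was 1.08 above day 0 on day 3. In the wider list of folding genes, of 26 measured, 2 were 2-fold or more higher on day 3, both of them members, and 0 on day 6, and the list median on day 3 was -0.13.

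Lysosomal genes gave 4 members, all up on day 3 alone. Ctns, cystinosin, which carries cystine out of the lysosome, read 6.36, 7.94, 7.25 and 6.75 on days 0, 3, 6 and 9. Creg1, a lysosomal glycoprotein, read 8.30, 9.75, 8.79 and 8.65, but its second probe set read 5.64, 7.36, 8.40 and 7.79 and was still 2.14 up on day 9. The probe sets thus gave Creg1 2 different courses. Rragd, a GTPase that reports amino acids in the lysosome to mTORC1, and Smpdl3a, a phosphodiesterase, were 1.09 and 1.02 up on day 3. The fixed list of lysosome and autophagy genes, which names none of these 4, held 0 members among 30 measured. Of the 30, 1, 2 and 2 were 2-fold or more higher on days 3, 6 and 9, and 0, 1 and 1 lower. The list median on day 3 was 0.14.

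The largest group, 21 members, was of mitochondrial and metabolic enzymes. Efhd1, a calcium-binding protein of mitochondria, read 5.84, 8.50, 7.70 and 6.35 on days 0, 3, 6 and 9, and was 6.30-fold up on day 3 and 3.61-fold on day 6. Ttpa, which carries vitamin E between membranes, read 7.44, 9.63, 8.43 and 7.95; its second probe set was 2.05 above day 0 on day 3 and 0.61 on day 9, just past the bound. Macrod1, a hydrolase of ADP-ribose marks in mitochondria, read 4.70, 6.60, 6.10 and 4.95.

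Alox12, a lipoxygenase that acts on arachidonic acid, read 4.18, 6.04, 5.79 and 4.69 on days 0, 3, 6 and 9, at least 3.59-fold up on day 3 and at least 3.01-fold on day 6. It was the sole member in a list of 15 measured barrier lipid genes, of which 7, 10 and 9 were 2-fold or more higher on days 3, 6 and 9. Phospho1, a phosphatase of phosphocholine, read 8.47, 9.95, 9.27 and 8.48. Gpt, alanine aminotransferase, followed closely at 8.42, 9.90, 9.28 and 8.48.

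Stbd1, which binds glycogen, read 5.65, 7.04, 5.80 and 5.66 on days 0, 3, 6 and 9, so 11.2% of its day 3 difference was left on day 6. Nfu1, which helps to build iron-sulfur clusters, lay at -0.09 against day 0 on day 6 and at -0.37 on day 9. Ech1, an enzyme of fatty acid oxidation, had equal differences of 1.18 and 1.19 on days 3 and 6. Akr1b8, an aldo-keto reductase, read 12.43, 13.49, 12.63 and 12.68 on the 4 days. It was the member from a list of 22 measured NRF2 and detoxification genes, of which 3, 4 and 3 were higher on the 3 later days.

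The remaining metabolic members were Uap1l1, Gchfr, Naprt, Aig1, Acad10, Gstt2, Pigy, Coq10a and Ghitm, up by 1.02 to 1.32 on day 3, and Gde1 and C1galt1, up on day 6 alone. Naprt makes NAD from nicotinic acid, Gchfr restrains the first enzyme of tetrahydrobiopterin synthesis, and Coq10a binds coenzyme Q. C1galt1, which builds the core of mucin-type sugar chains, read 8.87 on day 9 by the probe set that chose it, 0.42 above day 0, while its other probe sets were 1.81 and 1.03 above.

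Transcription factors and genes of the cell cycle and nucleus gave 12 members. Maf, a transcription factor of late keratinocyte differentiation, read 8.91, 10.21, 10.08 and 9.46 on days 0, 3, 6 and 9, close to the day 9 bound, and a second probe set was still 1.30 up on day 9. Its list of differentiation factors mostly stayed up: of 27 measured, 13, 17 and 17 were 2-fold or more higher on days 3, 6 and 9. Bcl6, a transcriptional repressor, and Cdc25b, a phosphatase that activates cyclin-dependent kinases, were 1.25 and 1.26 up on day 3.

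Of these 12, 5 were up on day 6 alone, a course that 11 of all 89 members had. Cdkn2b, the inhibitor p15 of the kinases that start the cell cycle, read 6.34, 6.86, 7.56 and 6.38 on days 0, 3, 6 and 9. In its list of kinase inhibitors and quiescence genes, 23 measured, 2, 7 and 3 were higher on days 3, 6 and 9. Casc3, a component of the exon junction complex, read 7.05, 7.18, 8.30 and 7.49, and so was the member with the smallest difference on day 3, 0.13. Averaged over its probe sets, the others of which read under 6, its peak difference was 0.46.

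Egr2, an immediate early transcription factor, read 5.04, 5.75, 6.14 and 5.61 on days 0, 3, 6 and 9, and Tp53inp1, a p53 target that promotes autophagy, read 6.12, 6.41, 7.16 and 6.47. Each was the sole member in its list, 1 of 26 measured immediate early genes and 1 of 19 measured p53 targets. Of the immediate early genes, 6, 11 and 8 were 2-fold or more higher on days 3, 6 and 9, and 0 were lower. Of the p53 targets, 0, 1 and 0 were higher on those days and 0, 3 and 1 lower. Taf15, an RNA-binding protein, was 1.03 up on day 6. Mdfic, Senp7, a SUMO protease, Klf11 and Cenpk, a kinetochore protein, were 1.00 to 1.05 up on day 3. The fixed list of replication and mitosis genes, which names neither Cenpk nor Cdc25b, held 0 members among 34 measured.

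Signalling and cytoskeleton genes gave 13. Rcan1, an inhibitor of the calcium-dependent phosphatase calcineurin, read 7.80, 9.42, 8.83 and 7.93 on days 0, 3, 6 and 9. It was 3.08-fold up on day 3 and 2.04-fold on day 6, and it was the 1 member that met the rule under all 14 other settings that were tried. Rcan2, its paralog, was 2.40 up on day 3 but ended 1.31 below day 0.

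The Rcan1 promoter is shown as that of the member least dependent on the settings. Capitals mark TGACGTCA, the cyclic AMP response element, TGACTCA, a match to TGANTCA, and TTTATAAA, in which TATAAA matches on both strands and the matches overlap; the window is chr11:45118187-45118486, minus strand, GRCr8.
Rcan1: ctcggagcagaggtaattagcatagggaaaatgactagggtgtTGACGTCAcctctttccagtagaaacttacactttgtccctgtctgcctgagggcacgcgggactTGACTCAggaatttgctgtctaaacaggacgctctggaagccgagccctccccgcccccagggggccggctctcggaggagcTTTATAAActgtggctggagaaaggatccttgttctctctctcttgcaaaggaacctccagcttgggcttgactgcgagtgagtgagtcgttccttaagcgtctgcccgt
TGACGTCA was in 2 of the 67 member promoters, those of Rcan1 and Cdkn2b, which is 2.99%, against 1.91% of all promoters and 3.54% of those of genes measured at 6 or more.

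Tmsb15b2, a thymosin that binds actin monomers, read 8.22, 9.68, 8.71 and 8.21 on days 0, 3, 6 and 9. Cracr2b, a regulator of store-operated calcium entry, read 5.29, 6.68, 5.93 and 5.80, and Shf, an adaptor protein, read 6.78, 8.16, 7.65 and 7.29. Cracdl was up on both days and Csrp2, a LIM domain protein, on day 6 alone. The other members, Gnb1l, Armcx3, Tbc1d31, Eml2, Mib2, Proser2 and Dtnb, were 1.01 to 1.16 up on day 3. The 1 non-coding member, LOC102548586, read 8.50, 9.71, 9.30 and 9.04.

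**Figure D3:**
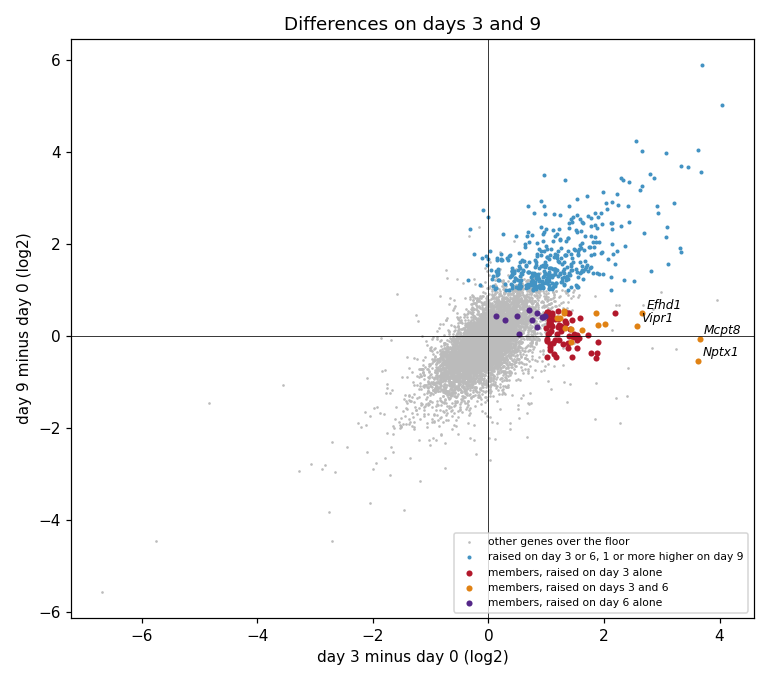
Log2 difference from day 0 on day 3 (horizontal axis) against day 9 (vertical axis) for each of the 8802 genes, with the members coloured by the days on which they were 2-fold up and the 382 genes that stayed up in blue. Members lie in the band within 0.585 of 0 on day 9 that the rule sets, and Mcpt8 and Nptx1, plotted as read, lie furthest to the right of them.

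Fixed gene lists held 22 of the 89 members, and the share of all 8802 genes that lie in a list was not counted. Of 31 lists of pathways and functions, the ATF4 response held 6, and the antimicrobial, inflammation, folding, hypoxia and growth factor lists 2 each, with Ero1a and Vegfa shared between lists. The cornified envelope and surface protease list, 32 measured genes, held 0, and 11, 16 and 18 of its genes were 2-fold or more higher on days 3, 6 and 9. Lists of sterol synthesis, the clock, Notch and Wnt held 0 as well. Members are 1.01% of all genes, so a 0 in lists of this size is near the background and not a result about them. The lists that hold members were written with earlier results of these data known, so their counts are a description. Hypoxia genes gave Vegfa and Ero1a, with 2, 1 and 1 of 28 measured higher on the 3 later days, and the list of mucins and sugar chains gave Gpc1.

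A second probe set of a gene was not used by the rule, though it reads the same RNA. Of the 89 members, 33 had 41 other probe sets and 56 had none. Of these, 22 probe sets of 21 genes read 6 or more on an array, and 21 of the 22 were higher than day 0 on the peak day of their gene. The exception was Ifnar2, at -0.25. Their median difference on that day was 1.14, beside 1.18 for the probe sets that chose the same genes.

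The full course held less often. Of the 22, 13 were 2-fold or more up on day 3 or 6, 12 were within 1.5-fold on day 9, and 7 were both: those of Cd55, Fgf9, Pck2, Pigy, Proser2, Ptges and Vegfa. On day 9 Aspn was still 0.78 up by its second probe set, and those of Ghitm and Armcx3 read -0.60 against day 0. Averaged over the probe sets of a gene, 18 members were under 2-fold at the peak, and 67 of the 89 still met the rule. These 18, with peak differences of 0.23 to 0.99, were Reep6, Uap1l1, Maf, Naprt, Casc3, Aig1, Gstt2, Kcnj3, Armcx3, Gabbr1, Egr2, Atf6, Mib2, Ifnar2, Mdfic, Adgrg6, Ghitm and Klf11, the last at 0.57. The 19 probe sets under 6 had a median difference of 0.14, and 13 of them were higher than day 0.

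**Figure D4:**
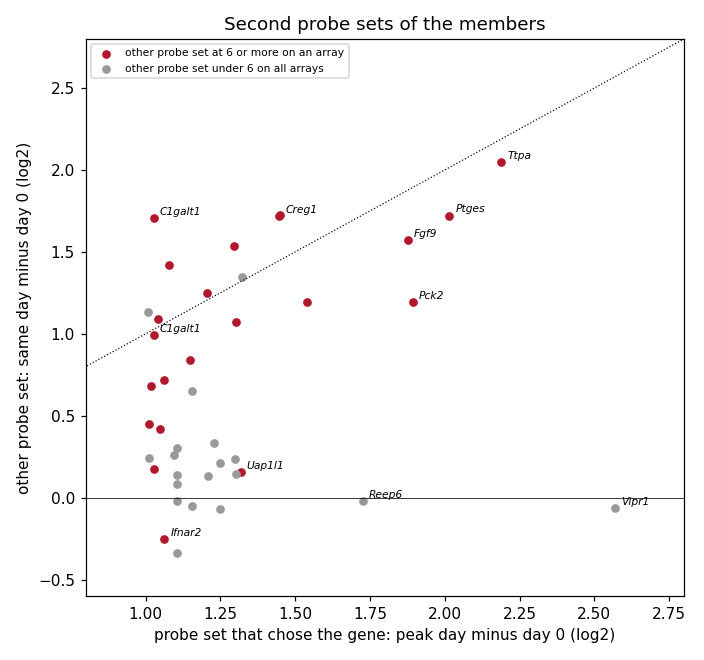
Log2 difference from day 0 on the peak day of the gene, by the probe set that chose the gene (horizontal axis) and by each other probe set of it (vertical axis); red points read 6 or more on an array, grey points less, and the dotted line marks equal values. Of the 22 red points 21 lie above 0, and the grey points lie mostly near 0.

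The promoters had a base composition like that of other measured genes. The 67 members matched in the RefSeq table had a median GC content of 60.7%, the 293 promoters of genes that stayed up 60.7%, and the 7424 of genes measured at 6 or more 61.3%, against 52.3% for all 27457. The GC box GGGCGG on either strand was in 71.6% of member promoters and 65.8% of those 7424, and CCAAT in 43.3% and 38.3%. Of 14 motifs searched, TTATGTAA, the D-box, was in 0 members. It was in 0.364% of those 7424 promoters, 0.881% of all promoters and 0 of the 293 of genes that stayed up. A 0 among 67 is near that background, so nothing is read from it.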

How the data were processed

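The measurement was gene expression on 4 Affymetrix Rat Genome 230 2.0 arrays, 1 for each day at 37 °C, from 500 ng of total RNA each. The authors deposited a log2 value per probe set, computed by RMA according to the submitters' processing notes. Which software and settings they used is not given in the sources used here, and base 2 was taken from the range of the values. RMA gives the arrays nearly the same distribution (medians of 5.22 to 5.24), so a gain or loss of RNA in all genes alike goes unseen.

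The platform annotation names 1 gene for 20832 of 31099 probe sets, several for 436 and none for 9831. A gene took its probe set with the highest mean, and all 89 members were found in the RefSeq table. Differences are log2 values of a day minus day 0. With 1 array per day no test was run; a fixed size of 1 on the log2 scale (2-fold), a bound of 0.585 on day 9 (1.5-fold) and a floor of 6 were used. The members, the lists and the bounds were chosen with earlier results of these data known, and the role groups after the members' values were seen.

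Full values are given for the 30 members with the largest peak and for members of a fixed list; other members are given by role, genes outside the members only beside a bound or in a member's pathway, and Ptgs2, Rcan2, Heatr6 and second probe sets after their values were seen. Promoters are RefSeq windows of build GRCr8, found for 67 members, searched on both strands. The count rule was tested on simulated data with rises larger than those of most members, which says nothing about members near a bound. Alternatives were other floors, the mean over probe sets, unmarked probe sets, 4 scalings, other sizes and bounds, and dim values set to the control. Python 3.11.15, numpy 2.4.6, pandas 2.3.3 and matplotlib 3.10.9 were used.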

Additional observations from a re-analysis of the deposited data

How the results depend on the processing

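The number of members followed the bounds: 89 became 56 with a floor of 8, 399 with 1.5-fold on day 3 or 6, 14 with 3-fold, 42 within 1.2-fold on day 9 and 197 within 2-fold. Members up on day 3 alone were 186 at 1.5-fold, 9 at 3-fold and 33 within 1.2-fold, against 63, and the median day 3 difference was 0.71 at 1.5-fold and 1.90 at 3-fold, against 1.21. A floor of 5 or none, other probe set rules and other scalings gave 75 to 110 genes. Centred on the median gene 74 of the 89 were members, on the housekeeping list 80, after a further quantile normalization 81, and on the spike-ins 28, where the amounts of 0.14, 0.39 and 0.63 are taken off. Under all 4 scalings 20 were members, under all 14 settings Rcan1. Of 620 recomputed peak values of genes, 555 stayed 2-fold or more, 65 were higher by less and 0 changed sign. A change of sign could hardly occur, so nothing is read from the 0. The members were chosen at a peak of 1 or more, and centring took at most 0.39 off days 3 and 6. For the 56 members with 1 probe set, averaging over probe sets changed nothing. No paired analysis was possible because each day has 1 array, and leaving out a replicate was not possible for the same reason. Of the members, 14 read under 7 on every array and 4 started at or below the brightest bacterial control, so signal over background limits their folds.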

Other observations

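Genes lowered for a time met the same rule with the sign turned, and no symbols were left out. Of 728 genes that were 2-fold or more below day 0 on day 3 or 6, 72 were back within 1.5-fold on day 9 (9.89%). Of these, 6 were down on day 3 alone, 8 on both days and 58 on day 6 alone, so their timing differed from that of the members. The day 6 array is the one that stood apart in the beta-actin probe sets, and its part in this was not tested. S100a9, a calcium-binding protein of inflamed epithelium and neutrophils, was the largest, at 10.41, 8.55, 8.95 and 10.36 on days 0, 3, 6 and 9, and its partner S100a8 read 10.29, 9.03, 9.80 and 10.75. Atxn7l1 read 7.56, 5.88, 6.33 and 7.49, and Ccng1, a cyclin and p53 target, 11.75, 10.98, 10.50 and 11.20.

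The 9 genes that the rule left out by symbol were Gdf15, Vldlr, Trib3, Krt79, Rab38, Asns, Ddit3, Slc4a7 and Hspb8. Gdf15, a stress-induced hormone, read 6.10, 9.35, 7.10 and 5.81 on days 0, 3, 6 and 9, and Vldlr, a lipoprotein receptor, 4.10, 6.94, 5.17 and 3.86.

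Among 2670 probe sets that read 6 or more and carry no name of 1 gene in the annotation, 57 met the same size rule (2.13%), 37 of them up on day 3 alone. The largest of them read 4.52, 7.29, 5.05 and 4.02 on days 0, 3, 6 and 9.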
